A study of Mus musculus with 2 samples.

Results

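Mast cell or basophil-like cells made up 51 of the 5187 barcodes that passed the filters in a single-cell RNA-seq table of embryonic mouse thymus, a share of 0.983% (exact Clopper-Pearson 95% interval 0.733% to 1.29%). The table held 6057 barcodes. A barcode was kept with at least 500 detected genes, at most 10% mitochondrial UMIs (unique molecular identifiers, each counting 1 captured transcript) and at most 1 UMI over Krt8, Krt18 and Prss16, genes of thymic epithelium. A kept barcode was counted among these cells when Gata2, Ms4a2, Fcer1a and Mcpt8 together had at least 3 UMIs and Cd3g had under 400 CPM (the UMIs of a gene scaled to 1000000 UMIs). Levels of these 5 genes, and of Kit and Mcpt8 where they divide the cells below, describe the choice and support nothing.

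The animals were 5x polychromILC mice, which carry reporters at loci of early T and innate lymphoid cells. The reporter transcripts read here were tagBFP at Id2, hCD2 at Gata3, mTeal at Rora and TdTomato at Bcl11b. Of the 2 samples, 1 library was labelled E15.5 and 1 E19.5, and both held sorted DN1 cells, the earliest thymocytes that lack CD4 and CD8, from embryonic thymus. The labels name the 3′ v3 droplet chemistry of 10x Genomics and describe lysis of the sorted cells to a nuclei extract, so the barcodes may be cells or nuclei. The sources used here do not give the number of embryos, their pooling or the antibodies of the sort. Barcodes end in suffix 1 (2182 barcodes) or suffix 2 (3875), and no label ties a suffix to a stage. The stages were therefore not compared, the table was treated as 1 pooled sample without replicates, no test was possible, and every interval below covers counting error only.

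Mast cells and basophils are granulated blood-lineage cells that carry the high-affinity receptor for IgE, whose chains are encoded by Fcer1a, Ms4a2 and Fcer1g. Mast cells mature in tissues, depend on the receptor Kit and store histamine, serglycin, carboxypeptidase A3, chymases and tryptases in their granules. Basophils mature before they enter the blood, respond to IL-3 and, in the mouse, are marked by the granule protease Mcpt8. The transcription factor Gata2 acts in both lineages.

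Promoter sequence is shown for Mcpt8, which marks basophils, for Mcpt4 and Mcpt1, chymases of mast cells, for Cpa3, the granule carboxypeptidase of mast cells, and for Ms4a2, the beta chain of the IgE receptor, as examples of the genes that mark the 2 lineages or both. The sequences are the bases before the transcription start in RefSeq (build GRCm38.p6), 5′ to 3′ on the strand of the gene. The bases that GENCODE places inside the gene were left off, 76 for Mcpt8 and 3 for Mcpt4. Capitals mark the letters GATAA, a core recognised by GATA factors, or TTATC, the same core on the opposite strand.
Mcpt8 chr14:56085274-56085447 (-): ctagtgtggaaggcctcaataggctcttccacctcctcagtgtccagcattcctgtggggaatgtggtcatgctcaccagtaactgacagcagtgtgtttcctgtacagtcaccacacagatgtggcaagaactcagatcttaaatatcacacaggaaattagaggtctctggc
Mcpt4 chr14:56062314-56062560 (-): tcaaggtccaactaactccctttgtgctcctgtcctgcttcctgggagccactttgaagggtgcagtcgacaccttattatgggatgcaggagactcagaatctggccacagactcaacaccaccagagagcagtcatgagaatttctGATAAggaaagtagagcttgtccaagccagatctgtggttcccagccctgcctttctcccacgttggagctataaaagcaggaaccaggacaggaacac
Mcpt1 chr14:56017714-56017963 (+): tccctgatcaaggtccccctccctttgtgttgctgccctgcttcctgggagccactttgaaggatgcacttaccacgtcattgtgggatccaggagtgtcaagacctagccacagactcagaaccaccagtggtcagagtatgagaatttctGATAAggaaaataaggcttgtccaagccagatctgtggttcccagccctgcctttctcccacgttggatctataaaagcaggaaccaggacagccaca
Cpa3 chr3:20242182-20242431 (-): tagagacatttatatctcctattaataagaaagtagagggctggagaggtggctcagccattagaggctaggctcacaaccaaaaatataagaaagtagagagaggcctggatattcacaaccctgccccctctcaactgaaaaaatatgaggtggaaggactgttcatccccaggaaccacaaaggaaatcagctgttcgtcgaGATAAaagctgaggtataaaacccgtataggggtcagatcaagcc
Ms4a2 chr19:11623720-11623969 (-): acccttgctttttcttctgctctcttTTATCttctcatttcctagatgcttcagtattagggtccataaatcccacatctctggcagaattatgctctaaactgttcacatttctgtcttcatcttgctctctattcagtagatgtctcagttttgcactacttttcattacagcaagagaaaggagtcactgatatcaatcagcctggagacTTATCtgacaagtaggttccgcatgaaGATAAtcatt
GATAA began 102 bases before the RefSeq start of Mcpt4, 98 before that of Mcpt1, 45 before that of Cpa3 and 10 before that of Ms4a2. The Ms4a2 window also held TTATC at 37 and 224 bases before the start. The Mcpt8 window held neither word. Of 32851 RefSeq promoters of 250 bases, 22.6% held GATAA or TTATC on either strand. Among the 12 genes of largest ratio in each of the Kit and Mcpt8 groups described below, 2 of 9 and 1 of 11 matched promoters held one. The Mcpt4 and Mcpt1 windows were identical at 81.5% of aligned positions, against 50.4% for Mcpt8 and Mcpt4. A match describes letters in a window and says nothing about binding. Mcpt8, Mcpt4, Mcpt1, Mcpt2, Mcpt9, Cma1, Cma2, Ctsg and Gzmb lie together on GRCm38 chromosome 14 between 55941451 and 56262260. Reads were checked for ambiguity by sharing of 90-base windows over the last 500 bases of their transcripts: of 182 ordered pairs of granule protease genes, 4 shared any window, those of Cma2 with Mcpt9 and of Cma2 with Mcpt4. No window was shared among Mcpt8, Mcpt4, Mcpt1, Mcpt2, Cma1, Tpsb2 and Cpa3, while values of Cma2 and Mcpt9 are uncertain.

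The 51 cells came from both suffixes, 19 of 1884 kept barcodes in suffix 1 (1.01%, 0.608% to 1.57%) and 32 of 3303 in suffix 2 (0.969%, 0.664% to 1.36%), so the shares overlapped. Their UMIs ran from 2472 to 40090 with a median of 7137, against a median of 14124 in the other 5136 kept barcodes, and together they held 552604 UMIs. No barcode sequence of these cells occurred under both suffixes, as 25 sequences did in the whole table. Scrublet, run on each suffix, called 103 of 5515 barcodes doublets (1.87%), 1 of them among the 51, and all were kept. At the threshold, 21 kept barcodes, counted among the 5136 others, had exactly 2 UMIs of the rule genes, 5 had 3 and 5 had 4. Just outside, the 21 barcodes had a median of 6789 UMIs and all held Cpa3, with a median of 15 UMIs, and 8 of them held 57 or more Mcpt4 UMIs. Just inside, all 10 barcodes with 3 or 4 rule UMIs held Cpa3 and 8 had at least 3 Kit UMIs. A further 9 barcodes with at least 3 rule UMIs failed the Cd3g limit, 3 the epithelial limit and 1 the limits on genes or mitochondrial UMIs.

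Marker lists of other lineages were set beside the label. All 16 genes of a mast cell list were detected, with a summed level of 21876 CPM that ran from 238 to 167577 CPM over the 51 cells. All 14 genes of a basophil list were detected, with 16714 CPM summed and 408 to 56236 CPM per cell. Both lists include genes that chose or divide the cells. Lists of other lineages were mixed. The eosinophil granule genes Epx and Prg2, the neutrophil genes Elane, S100a8 and S100a9, the macrophage genes C1qa, C1qb and C1qc, the platelet gene Pf4, the globin Hba-a1 and the B cell gene Pax5 were at 0 in all 51 cells, where 552604 UMIs allow up to 5.43 CPM. Other genes of those lists were present. Of the eosinophil list Siglecf was in 13 cells (25.3 against 7.74 CPM in the other kept barcodes), Ccr3 in 10 (23.5 against 0.265) and Il5ra in 5 (10.9 against 0.795), and 7 and 6 of the cells with Siglecf and Ccr3 had neither Kit nor Mcpt8 at 3 UMIs. Adgre1, of macrophages and eosinophils, was in 23 cells (107 against 0.191 CPM) and Itga2b, of megakaryocytes and mast cells, in 12 (34.4 against 6.44 CPM). Ctsg, which is in the neutrophil list and also in the granule list below, was in 9 (226 against 3.55 CPM). The rule limits Cd3g, and the other 9 genes of the T lineage list were all lower than in the other kept barcodes (median log2 ratio -3.50). Of the NK/ILC1 list (cytotoxic innate lymphocytes), Klrb1c, Ncr1, Tbx21 and Eomes were at 0 and Gzma, Gzmb and Nkg7 were present, so the list summed to 1191 CPM. Of the progenitor list Flt3 and Hoxa9 were at 0. Against the other kept barcodes Spi1, Cd34 and Meis1 of that list were higher and Bcl11a and Mef2c lower (median log2 ratio 0.18 over 9 genes). Genes of the label were thus present, in the separate sets described below, beside some of other lineages.

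**Figure D1:**
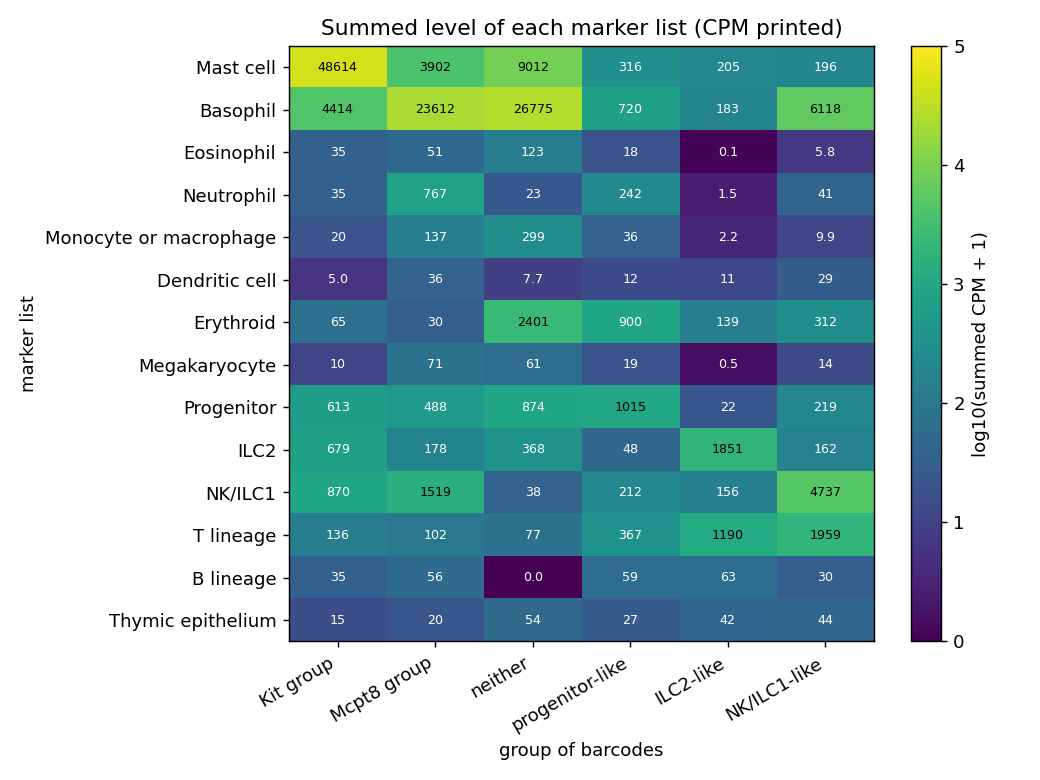
Summed level of each marker list in CPM (printed; colour on a log10(CPM + 1) scale) in 3 groups of the mast cell or basophil-like cells and in 3 classes of other barcodes. The mast cell list is at 48614 CPM in the Kit group and 3902 CPM in the Mcpt8 group, and the basophil list at 4414 and 23612 CPM. Ifitm1 alone is at 26293 CPM in the 3 suffix 2 cells of the Mcpt8 group. The 6118 CPM of the basophil list in NK/ILC1-like barcodes is nearly all Ifitm1 (6032 CPM).

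Compared with all other kept barcodes, 12491 genes had at least 20 UMIs over both sides, 12% were at least 2-fold higher in the 51 cells and 10.8% at least 2-fold lower, with a median log2 ratio of 0.06. The rule chose the cells by transcripts of the same barcodes, so these ratios are description. The counts that follow leave out the genes that chose or divide the cells. All 17 measured genes of the granule list other than Mcpt8 were higher, at a median log2 ratio of 7.16, and Mcpt9 and Prg2 had no UMI in the cells. Of the other lists, 5 of 17 genes of IgE receptor signalling were higher and none lower (median 0.38). The lipid mediator list had 7 of 10 higher (2.79), the adhesion and surface list 11 of 16 higher (2.29), the cytokine and chemokine list 10 higher and 1 lower of 16 (2.48) and the cytokine receptor list 10 higher and 1 lower of 19 (1.71). The lineage transcription factor list had 8 higher and 4 lower of 21 (0.89).

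Among the granule contents, some transcripts were in nearly every cell. Srgn, the proteoglycan core that packs granules, was in 51 of 51 cells, from 1498 to 13307 CPM with a median of 3363, and summed to 3391 CPM (95% Poisson interval 3239 to 3548) against 668 CPM in the other barcodes. Hdc, which makes histamine, was in 49 of 51 and summed to 1156 CPM (1068 to 1250) against 6.55. Cpa3 was in 47 of 51 and summed to 4242 CPM (4072 to 4417) against 143, and Cd63, a granule membrane protein, to 1591 CPM against 36.9. These transcripts were spread over the cells. Other proteases were each in a minority: Mcpt4 in 17 cells, Mcpt2 in 14, Mcpt1 in 11, Prss34 in 10 and Ctsg in 9, with Cma1, a chymase, in 25. In those, single cells reached 64052 CPM of Mcpt4 and 61416 CPM of Mcpt1 while the median over the 51 was 0.

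Against the 3 classes most like or most abundant beside them, the cells gave 11.8% of 9704 genes higher and 16.5% lower than progenitor-like barcodes, 11.9% of 10441 higher and 11.4% lower than ILC2-like barcodes, and 12.6% of 11287 higher and 12% lower than NK/ILC1-like barcodes. All 15 measured granule genes other than Mcpt8 were higher against each class, with median log2 ratios of 7.49, 8.72 and 8.87 beside medians of -0.18, 0.00 and -0.00 over all genes. The lineage transcription factors without Gata2 differed by class, with 7 higher and 9 lower of 20 against progenitor-like barcodes (median 0.19), 10 higher and 3 lower of 17 against ILC2-like barcodes (2.42) and 9 higher and 3 lower of 19 against NK/ILC1-like barcodes (0.98). Of the chemoattractant receptors, 7 of 10 were higher against progenitor-like barcodes and none lower, 5 of 12 were higher and 3 lower against ILC2-like barcodes, and 7 of 14 were higher and 2 lower against NK/ILC1-like barcodes.

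To compare shares of barcodes at equal depth, each barcode was thinned to 2400 UMIs, which neither measures nor removes free RNA. Then Hdc was in 84.3% of the 51 cells against 0.552% of 1269 ILC2-like barcodes (group 2 innate lymphoid cells, unthinned median 11838 UMIs) and 0.966% of 1760 NK/ILC1-like barcodes (13493 UMIs), with 1 shallower barcode left out of each class. Cma1 was in 45.1% against 0.158% and 2.84%. Cpa3 was in 82.4% against 1.10% and 12.7%, and in 36.7% of 240 progenitor-like barcodes (24956 UMIs), so Cpa3 was shared with that class. Cpa3 remained 20.5-fold higher in the 51 cells than in the progenitor-like barcodes (4242 against 207 CPM). Hdc differed more, at 1156 against 1.39 CPM.

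Of the IgE receptor, Fcer1g, the signalling gamma chain that other cells share, was in 51 of 51 cells at 1985 CPM (1869 to 2106) against 420 CPM in the other barcodes and 1009 CPM in NK/ILC1-like barcodes. Ms4a2 had 309 CPM and was in 35 cells, and Fcer1a, the IgE-binding alpha chain, had 65.1 CPM and was in 17. Gata2 had 563 CPM and was in 50 cells. These 3 are rule genes. Of the kinases and adaptors behind the receptor, Lyn (88.7 against 20.7 CPM), Lat2 (331 against 53.1), Btk (92.3 against 22.4) and Gab2 (27.1 against 2.26) were more than 2-fold higher, while Syk (28.9 against 20.6) and Lat (94.1 against 118) were within 2-fold.

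Of the transcription factors that the rule did not use, Mitf, which acts in mast cells, had 38.0 CPM against 1.02, Gata1 39.8 against 2.17, Cebpa, which acts in basophils, 43.4 against 0.403, Cebpb 456 against 74.4 and Spi1, encoding PU.1, 217 against 62.2. Gata3, the factor of T cells and ILC2, was lower, with 9.05 CPM in 2 cells against 79.5 CPM, and so were Zfpm1 (12.7 against 37.5), Irf8 with 1 UMI (1.81 against 13.7) and Lmo2.

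Among surface receptors, Csf2rb, the beta chain used by IL-3, GM-CSF and IL-5, had 349 CPM against 1.44. Csf2rb2, a beta chain used by IL-3 only, had 127 CPM against 0.117. Il3ra had 83.2 against 16.6 CPM. Il1rl1, the IL-33 receptor also used by ILC2, had 299 CPM (255 to 348) in 42 cells. In ILC2-like barcodes, which were chosen partly by Il1rl1, it was at 274 CPM. Cd200r3, a receptor of basophils and mast cells, was in 41 cells at 423 CPM against 1.28. Il7r was lower (74.2 against 214 CPM). Of the 14 chemoattractant receptors 8 were higher, among them the complement receptors C5ar1 (54.3 CPM, with 2 UMIs in 5136 other barcodes) and C3ar1 (63.3 against 0.127 CPM) and the chemokine receptor Ccr1 (134 against 1.09 CPM). Ccr9, a homing receptor of thymocytes, was lower, at 7.24 against 82.5 CPM.

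The 15 genes of highest ratio among those with at least 50 CPM were Il6, Mcpt1, Prss34, C5ar1, Dnase2b, Ccl6, Csf2rb2, Fcer1a, Ms4a2, Mcpt8, Slpi, Mcpt2, Adgre1, Maob and Rnase12, of which Fcer1a, Ms4a2 and Mcpt8 are rule genes. The cytokine gene Il6 had 63 UMIs in 22 of the 51 cells, or 114 CPM (87.6 to 146), and 4 UMIs in the other 5136 barcodes. The type 2 cytokine gene Il4 was in 38 cells at 128 CPM against 18.8. Il13 was within 2-fold (30.8 against 50.8 CPM) and Il5 was at 0. Cyp11a1, which encodes the enzyme that starts steroid synthesis from cholesterol, was in 50 of 51 cells, up to 4136 CPM with a median of 794, and summed to 709 CPM (641 to 783) against 2.92 CPM in the other barcodes. After thinning, Cyp11a1 was in 84.3% of the cells against 0, 0.236% and 0.568% of progenitor-like, ILC2-like and NK/ILC1-like barcodes.

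The rule divides the cells by Kit and Mcpt8. With at least 3 UMIs of Kit and under 3 of Mcpt8 there were 20 cells, called the Kit group, 4 of suffix 1 and 16 of suffix 2, with a median of 6441 UMIs. With at least 3 UMIs of Mcpt8 and under 3 of Kit there were 13 cells, the Mcpt8 group, 10 of suffix 1 and 3 of suffix 2, with a median of 9898 UMIs. In 17 cells neither gene reached 3 UMIs (4 and 13 by suffix, median 6044 UMIs), and 1 cell of suffix 1, with 26481 UMIs, had 5 UMIs of Kit and 12 of Mcpt8. The 2 groups thus lie mostly in different suffixes, and the genes that turned between suffixes are named below. In the Kit group Kit ran from 125 to 2553 CPM per cell with a median of 997 and Mcpt8 was in 2 cells. In the Mcpt8 group Mcpt8 ran from 470 to 9797 CPM with a median of 2522 and Kit was in 4 cells.

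**Figure D2:**
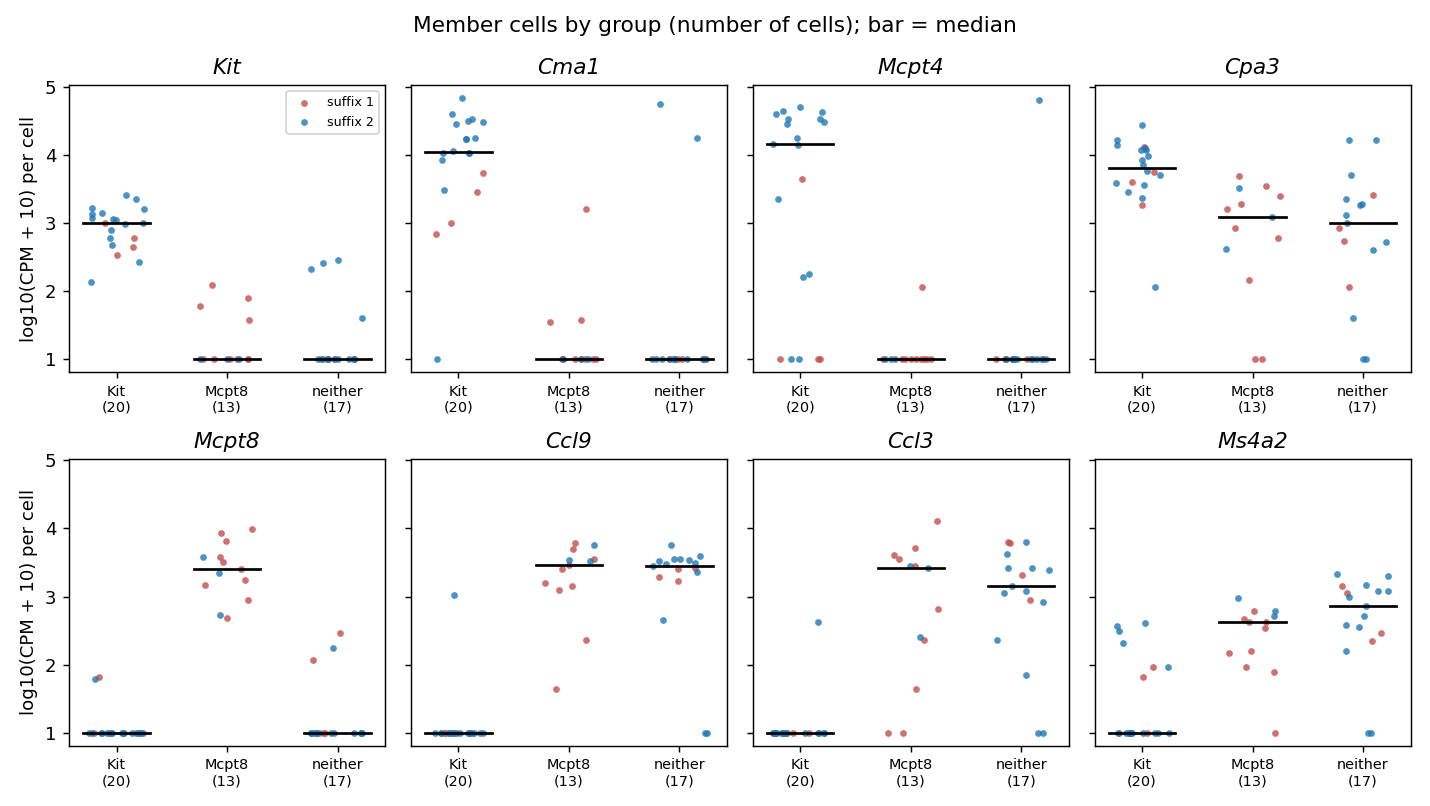
Level of 8 genes in each cell of the Kit group (20 cells), the Mcpt8 group (13) and the cells with neither (17), as log10(CPM + 10); each point is a cell, colour gives the barcode suffix and the bar is the median. Cma1 and Mcpt4 are at 0 in most cells outside the Kit group, and Ccl9 is in 13 of 13 cells of the Mcpt8 group and 15 of 17 with neither, but in 1 of the Kit group.

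Of 2742 genes with at least 20 UMIs over these 2 groups, 7.99% were at least 2-fold higher in the Kit group and 12.9% at least 2-fold higher in the Mcpt8 group, with a median log2 ratio of -0.09. The mast cell proteases Mcpt4, Mcpt1, Mcpt2, Cma1 and Tpsb2 were higher in the Kit group than in the Mcpt8 group when pooled. They were not confined to the Kit group, as 1 cell with neither held 258 Mcpt4 UMIs. Of 15 measured granule genes other than Mcpt8, 9 were higher in the Kit group and 2 in the Mcpt8 group (median 2.10). For the list with Mcpt8 the median was 1.80, but -0.65 in suffix 1 and 1.54 in suffix 2. Of 11 measured mast cell markers other than Kit, 9 were higher and none lower (3.23). The cytokine and chemokine genes went the other way, with 7 of 9 higher in the Mcpt8 group and none in the Kit group (-3.63). So did 3 of 4 chemoattractant receptors (-3.91) and 4 of 8 basophil markers other than Mcpt8 (-1.21). Of the 10 lipid mediator genes only 3 were measured, all higher in the Mcpt8 group (-2.82), and with a minimum of 5 UMIs a gene the list median turned to 0.12.

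Cma1 was in 19 of 20 Kit group cells, up to 67897 CPM with a median of 11024, and in 3 of 13 Mcpt8 group cells. The groups overlapped through those 3 and the 1 cell without it. Summed, Cma1 was at 10702 against 239 CPM, a log2 ratio of 5.49 (5.07 to 5.94). Mcpt4 was in 15 of 20 cells with a median of 14147 CPM and in 1 of 13, and summed to 8892 against 15.2 CPM, where the lower value is 3 UMIs (ratio 9.19, 7.64 to 11.47). Mcpt2, a chymase of mucosal mast cells, was in 11 of 20 cells and summed to 8525 CPM against 1 UMI (10.71, 8.23 to 16.02). Tpsb2, a tryptase, was in 15 of 20 cells and at 0 in all 13, at least 351-fold higher (5354 CPM, floor of 3 UMIs over the group). Tph1, the enzyme that starts serotonin synthesis, was in 18 of 20 and at 0 in all 13, at least 76.2-fold higher (1161 CPM). Cpa3 was in all 20 and in 11 of 13 cells, at 7957 against 1809 CPM (2.14, 1.97 to 2.31). The Kit group also had more Cd34, an adhesion sialomucin of progenitors and mast cells (287 against 30.5 CPM, 3.23), Rab27b, which acts in granule release (the same sums, 287 against 30.5 CPM), and Il1rl1 (488 against 117 CPM, 2.06). Of the 12 genes chosen by ratio, the others were Kit itself, Slc31a2, Tubb2b, Maob, which breaks down amines, Lrmp, Poln and Nmb, with 111 to 236 CPM against 1 UMI each, apart from Kit (724 against 30.5 CPM).

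In the Mcpt8 group, chemokines that draw myeloid cells led. Ccl3 was in 11 of 13 cells with a median of 2652 CPM and in 1 of 20 of the Kit group, 1560 against 40.2 CPM (log2 ratio -5.28, -6.50 to -4.28). Ccl9 was in 13 of 13 and in 1 of 20, 1961 against 101 CPM (-4.29, -5.01 to -3.64). Ccl6 was in 8 of 13, with 51.9% of its UMIs in 1 cell, and in 1 of 20 (1174 against 131 CPM). The Ccl3, Ccl9 and Ccl6 UMIs of the Kit group were all in 1 suffix 2 cell, which had 5 Kit UMIs, 7 of Ms4a2, 2 of Cpa3 and none of Cma1 or Mcpt4. Il6 was in 11 of 13 cells and 4 of 20 (234 against 20.1 CPM, -3.54), and the cytokine gene Osm was at 249 against 20.1 CPM (-3.63). Alox15 and Alox5, lipoxygenases, were at 132 CPM against 1 UMI and at 213 against 30.2 CPM. Ccr1 (163 CPM against 2 UMIs), Ccr2 (279 against 20.1 CPM), Cxcr2 (102 CPM against 1 UMI), Rnase12 (269 CPM against 0) and Pglyrp1 (218 CPM against 2 UMIs) were also higher. So were the chemokine gene Ccl4 (193 CPM against 1 UMI) and, each at 112 CPM against 1 UMI, the lectin gene Clec4a2, Nabp1 and Adgrg1, the last of which was lower in the Mcpt8 group (log2 ratio 0.44) when 2 rule UMIs sufficed. Of the factors, Runx1 (549 against 90.5 CPM, -2.60) and Cebpb (737 against 136 CPM, -2.44) were higher in the Mcpt8 group. Ms4a2 was as well, at 310 against 90.5 CPM (a log2 ratio of -1.78), while for Fcer1a (50.8 against 111 CPM) the interval included 0. Ms4a2, Fcer1a and Gata2 are rule genes. The Mcpt8 group could enter by Mcpt8 alone, while the Kit group needed UMIs of Gata2, Ms4a2 or Fcer1a. Their ratios between the groups thus describe the choice.

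For some other genes the interval of the pooled ratio between the groups included 0. Of these, Gata2, a rule gene, and Srgn turned between the suffixes, while Cyp11a1 and Il4 kept their direction. Gata2 was at 573 CPM in the Kit group and 544 in the Mcpt8 group (log2 ratio 0.08, -0.32 to 0.47), Srgn at 3288 and 3394 (-0.05, -0.20 to 0.11), Cyp11a1 at 583 and 615 (-0.08, -0.46 to 0.30) and Il4 at 161 and 96.5 (0.74, -0.13 to 1.64). In suffix 1 Gata2 was at 836 against 532 CPM (0.65, 0.17 to 1.13) and in suffix 2 at 409 against 625 (-0.61, -1.45 to 0.30). Srgn was at 2378 against 3434 CPM in suffix 1 (-0.53) and 3856 against 3125 in suffix 2 (0.30). Cyp11a1 was lower in the Kit group in both, at 261 against 555 CPM (-1.09, -1.86 to -0.38) and 784 against 1016 (-0.37, -1.01 to 0.31). Hdc was 1.72-fold higher in the Kit group pooled, but at 444 against 794 CPM in suffix 1 (-0.84) and 2263 against 1680 in suffix 2 (0.43, -0.04 to 0.93).

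**Figure D3:**
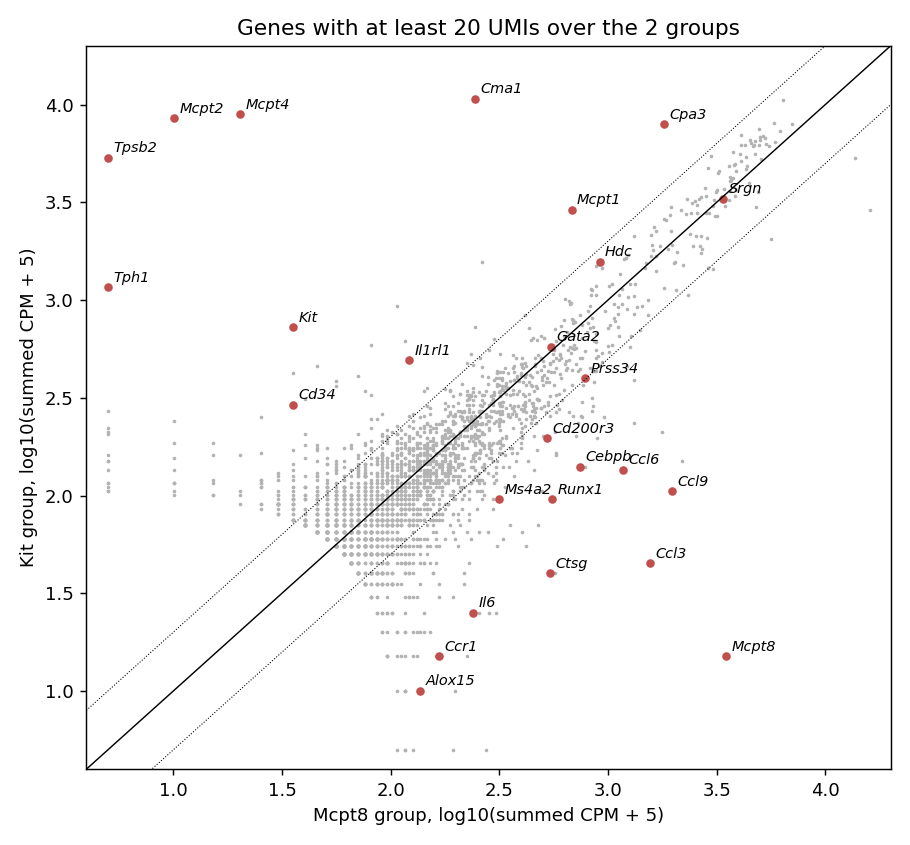
Summed level of 2742 genes in the Kit group against the Mcpt8 group, as log10(CPM + 5); each point is a gene, the line marks equal levels, the dotted lines a 2-fold difference, and red points are named genes. Cma1, Mcpt4, Mcpt2, Tpsb2 and Tph1 lie far above the line, Mcpt8, Ccl3, Ccl9 and Ctsg far below it, and Gata2 and Srgn on it.

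Within suffix 1 the ratios of the Kit group over the Mcpt8 group rest on 4 and 10 cells, and within suffix 2 on 16 and 3. Of 52 genes compared this way, 40 had 1 direction in both suffixes, and Mcpt1, Hdc, Srgn, Gata2, Fcer1a and Gzmb turned. For Tpsb2, Rnase12, Ctsg, Mpo, Siglecf and Maob the UMIs of 1 suffix gave no direction. Cpa3 was higher in the Kit group in both, with log2 ratios of 2.15 and 2.29, and so was Cma1, 3.00 in suffix 1 and at least 7.09 in suffix 2. Ccl9 was lower in both, at most -5.36 and -4.72, as were Cebpb (-2.69 and -1.99) and Runx1 (-2.50 and -3.67). Tpsb2 was a feature of suffix 2: 1064 of its 1065 UMIs in the Kit group were there, against 1 UMI in the 4 cells of suffix 1. Tph1 had 228 UMIs in suffix 2 and 3 in suffix 1. Mcpt1 turned direction, from 196 against 777 CPM in suffix 1 (-1.99) to 4584 CPM against 0 in suffix 2 (at least 5.29), and all 133 Mcpt1 UMIs of the Mcpt8 group were in 1 suffix 1 cell. Gzmb was lower in the Kit group in suffix 1 (-2.59), where 125 of the 175 Gzmb UMIs of the Mcpt8 group were in 1 cell, and higher in suffix 2, at 204 CPM against 0 (at least 0.80). Ctsg had 105 UMIs in the Mcpt8 group, all in suffix 1. Whether suffix or stage has a part in the division was not tested and cannot be told apart from it for genes held by cells of 1 suffix.

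The Kit group was not uniform. In 13 of 20 cells Mcpt4 had at least 50 UMIs, 12 of them in suffix 2 and 1 in suffix 1, and in 7 it had under 3. Of the 4 suffix 1 cells, 3 had no Mcpt4 and all had 8 to 96 UMIs of Cma1. In suffix 2, 2 cells with 0 or 1 Mcpt4 UMI had the most Tpsb2 (287 and 229 UMIs) and Cma1 (399 and 449 UMIs) and held 76 of the 78 Prss34 UMIs of the group. Prss34, a tryptase-related protease of basophils, was thus also in Kit group cells without Mcpt8. Mcpt1 was mostly in 2 cells, with 268 and 255 of its 576 UMIs, and these also held 213 and 203 Mcpt2 UMIs. The cell with both Kit and Mcpt8 held 134 Mcpt1, 140 Cma1 and 172 Gzmb UMIs, and a suffix 1 cell of the Mcpt8 group held 133 Mcpt1, 45 Cma1 and 125 Gzmb UMIs. Over 755 genes the profiles of these 2 cells had a Pearson r of 0.878, the highest of the 21 pairs among the 7 cells above 20000 UMIs, and their barcodes differed at 10 positions. That r is across genes, which are not independent.

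Of the 17 cells with neither gene at 3 UMIs, 4 were of suffix 1 and 13 of suffix 2, while 10 of the 13 in the Mcpt8 group were of suffix 1. Most held its chemokines: 15 had Ccl9, from 0 in 2 cells to 5625 CPM with a median of 2805 over the 17, and the same 15 held Ccl3. Of 2374 genes measured, 13.6% were at least 2-fold higher in the Mcpt8 group and 8.21% at least 2-fold lower. Ccl9 was at 2186 CPM against 1961 in the Mcpt8 group (log2 ratio of the Mcpt8 group over these cells -0.16, -0.38 to 0.07), Cpa3 at 1856 against 1809 (-0.04) and Gata2 at 522 against 544 (0.06). These 3 turned by suffix: the ratio of Ccl9 was -0.47 in suffix 1 and 0.98 in suffix 2, that of Cpa3 0.96 and -0.41, and that of Gata2 -0.78 and 0.62. Of the granule proteases, Mcpt8, which the choice sets, was at 30.7 CPM in the 17 cells. Prss34 was at 0 in all 17, at least 33.8-fold lower than in the Mcpt8 group. The Mcpt8 group had 96 Prss34 UMIs in suffix 1 and 57 in suffix 2, those 57 all in 1 of 3 cells. Of its 13 cells 53.8% held Prss34. Ctsg and Gzmb were also at 0 in the 17 (at least 23.2-fold and 38.6-fold lower), but in suffix 2, which holds 13 of the 17, the Mcpt8 group had none of either. Dnase2b was higher in the 17 (299 against 55.9 CPM, -2.42), with ratios of -2.70 and -1.34 in suffixes 1 and 2. Adgre1 (276 against 102 CPM) had -1.95 and -0.40, and Ccr2 (637 against 279 CPM) -1.32 and -0.56, and in suffix 2 the interval of each of these 3 included 0. Ms4a2 was at 667 against 310 CPM, but in suffix 2 at 665 against 664. It and Gata2 are rule genes, and cells with neither, unlike the Mcpt8 group, needed UMIs of Gata2, Ms4a2 or Fcer1a to enter. Ccl6 was at 4126 against 1174 CPM pooled (-1.81), yet lower than in the Mcpt8 group within each suffix. It was at 0 against 251 CPM in suffix 1 and 5338 against 7345 in suffix 2. In suffix 2, 1 of the 3 Mcpt8 group cells held 120 of their 188 Ccl6 UMIs, and the part of suffix make-up was not tested. The S phase list had 10 of 11 measured genes higher in the Mcpt8 group (2.33). In suffix 1 its median was 0.74 over 9 genes, and in suffix 2 no S phase gene was measured. The pooled sums rest in large part on a few deep cells. Of the 196808 UMIs of the Mcpt8 group, single cells held 40090, 36690 and 28901. After thinning, the median per cell was 2 S phase UMIs in the Mcpt8 group (0 to 18) and 1 in cells with neither (0 to 3). The highest thinned counts in the Mcpt8 group were 18, 13, 7 and 6. Of the 17 cells, 2 held no Ccl9, both of suffix 2. They held 65 and 222 Cma1 UMIs, 0 and 258 of Mcpt4, 89 and 84 of Tpsb2 and 1 of Kit each. They hold all the Cma1, Mcpt4 and Tpsb2 of the 17. They also hold 61 and 66 of the 214 Cpa3 UMIs of the 13 suffix 2 cells, so the pooled Cpa3 level rests in part on them. A further suffix 2 cell of 33618 UMIs held 309 of the 311 UMIs of the globin gene Hbb-bt in these 17 cells.

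Of transcripts of other lineages, the neutrophil list was at 767 CPM in the Mcpt8 group, 35.2 in the Kit group and 23.0 in cells with neither. In the Mcpt8 group this was Ctsg in 6 of 13 cells (534 CPM) and Mpo (188 CPM), with Elane, S100a8 and S100a9 at 0. Ctsg is also counted in the granule list. Gzma, of cytotoxic cells, had at least 3 UMIs in 6 cells of the 51, and Cd3g was in 8. The NK/ILC1 list was at 870 CPM in the Kit group, 1519 in the Mcpt8 group and 38.3 in cells with neither. The part of these transcripts in the differences above was not tested.

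Transcripts of dividing cells were low in these cells. The 30 S phase genes summed to 1665 CPM (1559 to 1776), a log2 ratio of -1.04 to the other kept barcodes, with 19 of 30 at least 2-fold lower and none higher (median -1.08). The 31 G2/M genes summed to 3189 CPM (3041 to 3341), a ratio of -0.83, with 13 of 31 lower and none higher (-0.78). Because the cells were shallower, each was also thinned to 2400 UMIs. The median per cell was then 1 S phase UMI and 1 G2/M UMI, against 6 and 5 in the other kept barcodes. ILC2-like barcodes were nearer, with medians of 2 and 3, and progenitor-like barcodes had 6.5 and 5. At least 10 thinned G2/M UMIs were found in 7 of the 51 cells, 5 of them among the 7 cells above 20000 UMIs. Depth and these lists thus moved together among the cells, and the part of depth was not tested.

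**Figure D4:**
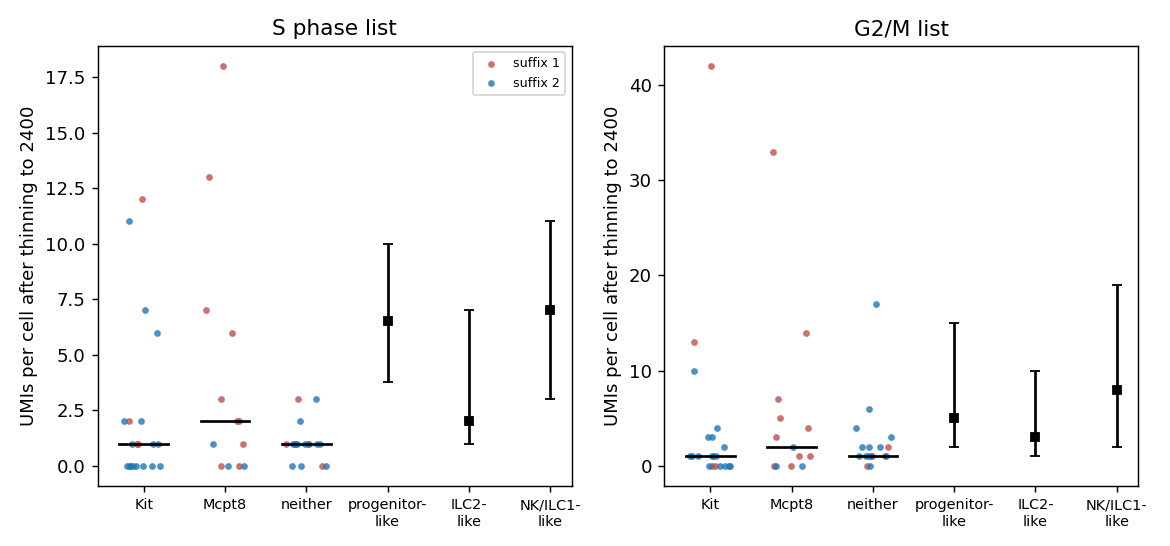
UMIs of the S phase and G2/M lists per cell after thinning to 2400 UMIs; each point is a mast cell or basophil-like cell, colour gives the suffix and the bar is the median, while squares with bars give the median and quartiles of 3 classes of other barcodes. Most cells of the 3 groups sit at 0 to 3 UMIs on the G2/M list and a few reach 10 to 42.

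Of the reporter loci, Id2 was read in 36 of 51 cells and tagBFP, the reporter at Id2, in 41. Id2 was at 337 CPM in the Kit group, 71.1 in the Mcpt8 group and 430 in cells with neither, and tagBFP at 724, 239 and 736 CPM. The log2 ratio of Id2 in the Kit group over the Mcpt8 group was 2.24, and in the Mcpt8 group over cells with neither -2.59 (-3.55 to -1.73). Pooled, the reporter and its locus were both lowest in the Mcpt8 group, while tagBFP was near equal in the Kit group and cells with neither. In suffix 2 tagBFP was at 743.5 CPM in the Kit group and 694 in cells with neither, but Id2 at 302 and 437. In progenitor-like barcodes they were at 36.9 CPM (tagBFP) and 15.1 CPM (Id2), and in ILC2-like barcodes at 971 and 357 CPM. The other loci were near 0: Gata3 had 5 UMIs and hCD2 2, Rora 7 and mTeal 4, and Bcl11b 4 and TdTomato 0 in the 51 cells.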

How the data were processed

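The authors' deposited table held raw UMI counts per gene and barcode of both libraries, with no normalization. Per the submitters' processing notes, Cell Ranger 3.0.2, STAR and the GRCm38 genome were used; the cell-calling settings were not given in the sources used here. Barcodes were filtered and chosen as stated in the report, and UMIs were summed per group and scaled to CPM with exact Poisson intervals (numpy 2.4.6, scipy 1.17.1, pandas 2.3.3). Log2 ratios have conditional exact 95% intervals, and a count of 0 was set to 3 UMIs, giving a bound. Called means at least 2-fold, among genes of at least 20 UMIs over both groups. No test was made, since there were no replicates. Progenitor-like, ILC2-like and NK/ILC1-like barcodes had at least 6 UMIs of exactly 1 of the sums Flt3, Spi1 and Bcl11a (with Cd3g under 400 CPM), Il1rl1, Icos and Areg, or Nkg7, Klrb1c and Ncr1. Genes named were the rule genes, the 15 and 2 times 12 of largest ratio with at least 50 CPM, the 4 most abundant of each list, and defining markers at 0; further list genes were named after their values were seen. Doublets called by Scrublet (scanpy 1.11.5) were kept. The interval calculation was checked on simulated data. The members and lists were chosen with earlier results of these data known. The T cell receptor genes and 1 reporter locus are not reported here. Ratios of the Mcpt8 group over cells with neither within each suffix, and list counts without the genes that chose or divide the cells, were added after seeing the data. Alternatives were other rule, gene and depth limits, each suffix alone, thinning, mean CPM and doublets removed.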

Additional observations from a re-analysis of the deposited data

Results flagged for a closer look

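Cma1 was found in barcodes that no comparison of the report uses. Of the barcodes that failed the epithelial limit, 3 held at least 3 UMIs of the rule genes, all of suffix 1. They held Cma1 at 3293 CPM (2859 to 3773), above the 26.1 CPM of the other kept barcodes, with UMIs in 2 of the 3 and at least 3 UMIs in 1. Nearly all of the 207 Cma1 UMIs were thus in 1 barcode, and the level does not describe the 3 together. Nkg7, a gene of cytotoxic cells, was in all 3 (525 CPM). Mcpt4, Ms4a2 and Fcer1a were at 0 in them, where a count of 0 allows up to 3 UMIs, and Gata2 was at 239 CPM. The cause was not tested.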

How the results depend on the processing

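No paired analysis was possible because the table pools 1 library per stage and no suffix is tied to a sample. With at least 2 rule UMIs the share was 1.39%, 847 genes were lower than in other barcodes, 420 were higher in a Kit group of 32 cells, and Adgrg1 turned to 0.44; with at least 6 the share was 0.733%, the Kit group 9 cells and Fcer1a -0.11. Suffix 1 alone gave 19 cells and a Kit group of 4. In the Kit group over the Mcpt8 group it gave a granule list median of -0.65, Mcpt1 at -1.99 and Fcer1a at no more than -0.25. Suffix 2 gave 32 cells and a Mcpt8 group of 3, with 149 genes lower in the Kit group (15.3% of 972 measured). It gave Gzmb at no less than 0.80 and no direction for Maob (13 UMIs against 0). Averaging CPM per barcode gave 2387 genes lower in the cells, of the same 12491 measured. Between the Kit and Mcpt8 groups (219 higher and 354 lower of 2742), a minimum of 5 UMIs gave 943 and 1205. A minimum of 100 gave 19 and 62, and none gave 1100 and 1550. With 5 or none the lipid list median turned to 0.12. Apart from suffix 2 alone and averaged CPM, the number of genes measured under each setting of this section is not given here. Those gene counts are therefore not shares and cannot be set against the main counts. Kit or Mcpt8 of at least 5 UMIs left 13 Kit cells and Mcpt1 at -1.50; thinning to 2400 UMIs left 8, a share of 0.688%, Mcpt1 at -0.98 and Alox5ap at 0.086. Without barcodes above 20000 UMIs, added after seeing the data, Gzmb was 1.65. A mean of at least 10 CPM over the 2 sides was also required, a setting added after seeing the data. The cells then had 748 genes higher and 723 lower than other barcodes (against 1503 and 1352). The S phase ratio of -1.04 was -2.58 from thinned medians and, in settings added after seeing the data, -0.85 in suffix 1, -1.69 in suffix 2 and -1.64 without barcodes above 20000 UMIs; for G2/M these were -2.32, -0.68, -1.35 and -1.28. The cause was not tested. Between the Kit and Mcpt8 groups 54 genes kept their direction in 979 of 1007 values, with Adgrg1, Alox5ap, Cyp11a1, Fcer1a, Gata2, Gzmb, Hdc, Il4, Mcpt1 and Srgn turning at least once, and lists in 176 of 188; against other barcodes 17 genes did so in 254 of 254 and lists in 150 of 150. The genes in these tallies were chosen largely by the same ratios or named after their values were seen. Gene values whose UMIs gave no direction were left out. The tallies are therefore description and support nothing. Depth limits the rule: a shallow cell can miss 3 UMIs.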

Other observations

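Of the barcodes with at least 3 UMIs of the rule genes, 9 failed only the Cd3g limit, 5 of suffix 1 and 4 of suffix 2, with a median of 12915 UMIs. In them Cpa3 was at 4010 CPM in 8 barcodes, Cma1 at 5021 CPM in 6, Hdc at 1430 CPM in 5, Kit at 186 CPM in 7 and Ccl9 at 105 CPM in 2. Nkg7, a gene of cytotoxic cells, was in 6 of the 9 at 506 CPM. The 21 kept barcodes with exactly 2 UMIs of the rule genes, which the report counts among the other kept barcodes, held Cpa3 at 920 CPM (832 to 1014) in 21 of 21, against 143 CPM in all other kept barcodes. Mcpt4 was in 8 of them at 1908 CPM (1780 to 2041), all of suffix 2, and these 8 hold 836 of the 1278 Mcpt4 UMIs outside the 51 cells. Mpo was in 8 of the 21 at 196 CPM (157 to 242).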
